A study of Homo sapiens with 4 samples.

Results

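The vascular endothelial growth factor (VEGF) system comprises 10 genes here: the ligands VEGFA, VEGFB, VEGFC, VEGFD and PGF, the receptor tyrosine kinases FLT1, KDR and FLT4, and the co-receptors NRP1 and NRP2. They were chosen by gene symbol, with the brightest feature standing for a symbol, and each of the 10 had exactly 1 feature among the 17709 features with 1 symbol (21448 features in all). RNA came from HeyA8-MDR, an established, multidrug-resistant human ovarian carcinoma line grown in 15% serum with 300 ng/ml paclitaxel, and was hybridised to Affymetrix Clariom S arrays. Cells had received a control microRNA inhibitor (2 arrays) or an inhibitor of miR-204-5p (2 arrays), an antisense oligonucleotide meant to block that microRNA. One treatment text, naming the inhibitor, was given for every sample, so the control group follows from the sample titles and the design text. All cells were of 1 line under the same drug, the labels do not say that replicates were separate cultures, and the level of miR-204-5p was not analysed here, so the p-values cover array-to-array spread alone, possibly technical.

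VEGF ligands are secreted dimers that bind receptor tyrosine kinases, mostly on endothelial cells, and drive the growth and permeability of blood vessels (VEGFA through FLT1 and KDR, PGF through FLT1) or of lymphatic vessels (VEGFC and VEGFD through FLT4). Neuropilins lack kinase activity, bind both VEGF ligands and class 3 semaphorins, and are found on many tumour cells. Ovarian carcinomas secrete VEGFA, which is known for its part in ascites formation and is the target of bevacizumab.

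The microRNA named as the inhibitor's target is shown with its close relative miR-211-5p. A microRNA finds messenger RNAs mainly through its seed, bases 2 to 8, given in capitals. The sequence of the inhibitor was not examined here. Sequences are from RefSeq (GRCh38.p14), at chr9:70810031-70810052 and chr15:31065095-31065116, both on the minus strand.
hsa-miR-204-5p: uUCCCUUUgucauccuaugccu
hsa-miR-211-5p: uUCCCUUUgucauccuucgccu
Both are 22 bases long, share the seed and differ at 2 bases outside it. They were the 2 human mature microRNAs in the RefSeq table with this seed. Sites for the seed in the VEGF transcripts were not analysed here.

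Across the series, array medians were 5.59 to 5.68 log2 units and Pearson correlations over features were 0.984 to 0.995. Differences are given as inhibitor minus control on the log2 scale and were tested with limma's moderated test over all features. Their median was -0.07, and -0.17 over the features above the median level, against 0.00 and -0.01 once the arrays were quantile-normalized again. For this reason, values after quantile normalization are given beside the main ones for the members. For named pathway genes they are given where they changed a sign, a call or the size by over 1.5 times. Of the markers of the line, the epithelial keratins KRT8 (11.28 to 11.45 over the arrays) and KRT18, the ovarian lineage factor PAX8 and the drug efflux pump ABCB1 (7.55 to 7.77) were all above the median level of features, while the epithelial genes EPCAM and CDH1 lay in the dimmest 25%. The markers KRT19 (4.96 to 5.62) and MUC16 (4.35 to 4.86) lay between that 25% and the median level. MUC16 differed by -0.39 (unadjusted p of 0.036, adjusted p of 0.25 in limma).

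VEGFA and NRP2 were the members with the largest differences, in opposite directions. VEGFA had higher values with the inhibitor and NRP2 lower ones, without overlap between groups, and neither passed an adjusted p of 0.05. VEGFB, VEGFC, NRP1 and the 3 receptor kinases differed by at most 0.12 in either direction, less than the standard error of each. VEGFD and PGF lay between these sets. The plot of values by array shows all 10 genes.

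**Figure D1:**
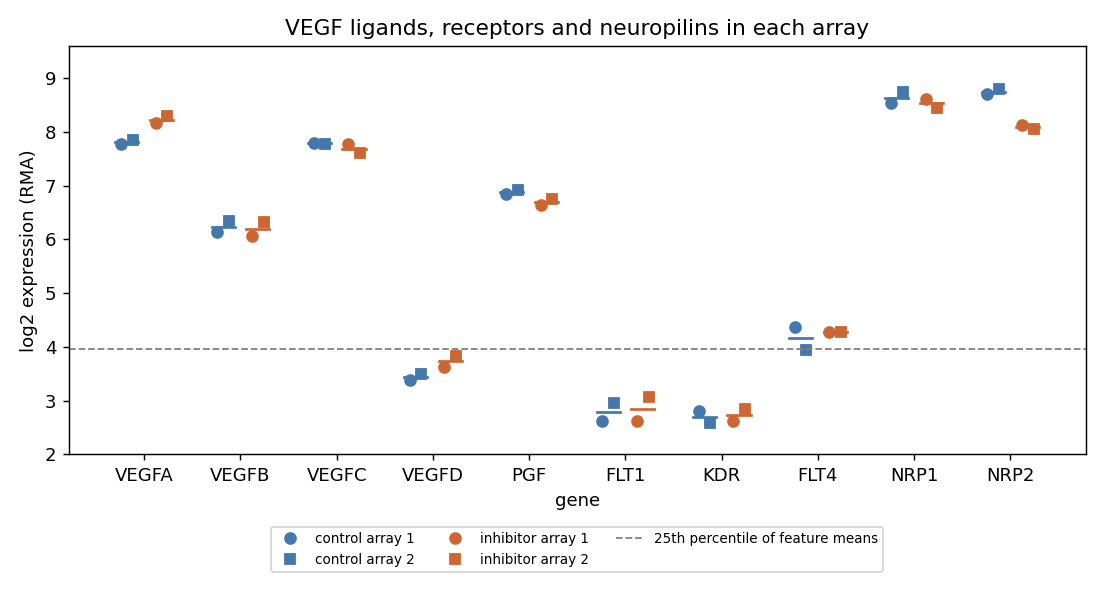
Log2 expression (y axis) of each of the 10 genes (x axis) in the 2 control arrays (blue) and the 2 inhibitor arrays (orange), with circles for array 1, squares for array 2 and short lines for group means; the dashed line is the 25th percentile of feature means (3.96). VEGFA and NRP2 separate the groups most clearly, and VEGFD, FLT1 and KDR lie below the dashed line. Heights are not comparable between genes, because probes differ.

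VEGFA, the main ligand of blood vessel growth, had 7.77 and 7.85 log2 units on the control arrays and 8.16 and 8.29 on the inhibitor arrays. Both inhibitor arrays lay above both controls. In bulk RNA a change in the number of cells with a transcript and a change in its amount per cell cannot be told apart. The difference was 0.42 (SE 0.145, 95% interval 0.07 to 0.76), or 1.33-fold, with an unadjusted p of 0.025 and an adjusted p of 0.22 in limma. After quantile normalization its values were 7.71 and 7.73 against 8.30 and 8.35, a difference of 0.60 (SE 0.126, adjusted p = 0.23), or 1.52-fold. It passed the threshold in 1 of 14 settings, quantile normalization with an intensity trend in the variance prior (adjusted p = 0.015). In that setting 2.61% of all features passed, against 0.0513% in the main fit. With the trend on the deposited values the adjusted p was 0.052. The whole interval lay above 0 and below a doubling, so a change of 2-fold was outside it.

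VEGFD, a ligand of FLT4 and KDR, had 3.39 and 3.49 on the control arrays and 3.63 and 3.83 on the inhibitor arrays. The inhibitor arrays were again the higher ones, but all 4 values lay in the dimmest 25% of features, where a dim transcript cannot be told from an undetected one. The difference was 0.29 (SE 0.151, 95% interval -0.07 to 0.65, adjusted p = 0.36 in limma), and 0.23 after quantile normalization.

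PGF, placental growth factor, which binds FLT1, had 6.85 and 6.92 on the control arrays and 6.65 and 6.75 on the inhibitor arrays. Its inhibitor values were both the lower ones, by 0.18 on average (difference -0.18, SE 0.142, 95% interval -0.52 to 0.15, adjusted p = 0.53 in limma). After quantile normalization the groups overlapped and the difference was -0.05.

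VEGFC, the principal lymphatic ligand, had 7.80 and 7.77 on the control arrays and 7.77 and 7.60 on the inhibitor arrays. The groups met at 7.77, and the difference of -0.10 (SE 0.146, 95% interval -0.45 to 0.25) became 0.08 after quantile normalization. VEGFB, a FLT1 ligand linked to fatty acid uptake, had 6.14 and 6.34 on the control arrays and 6.07 and 6.33 on the inhibitor arrays. The ranges of VEGFB overlapped almost fully, and its difference of -0.04 (SE 0.165, 95% interval -0.43 to 0.35) became 0.06 after quantile normalization. For VEGFB and VEGFC these data show no direction.

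The receptor kinases were dim. KDR, the main signalling receptor for VEGFA, had 2.80 and 2.58 on the control arrays and 2.62 and 2.85 on the inhibitor arrays. FLT1, a high-affinity receptor for VEGFA that also exists as a soluble decoy, had 2.62 and 2.95 on the control arrays and 2.62 and 3.07 on the inhibitor arrays. The 4 values of each fell within less than 0.5 log2 units in the dimmest 25% of features, with the groups overlapping. FLT4, the lymphatic receptor, had 4.37 and 3.95 in the controls and 4.28 in both inhibitor arrays. Its control arrays lay on either side of the inhibitor value. Differences were 0.05 for KDR (95% interval -0.34 to 0.43), 0.06 for FLT1 (95% interval -0.43 to 0.55) and 0.12 for FLT4 (95% interval -0.31 to 0.55), and those of KDR and FLT1 turned to -0.04 and -0.03 after quantile normalization, with FLT4 at 0.10. Detection calls were not analysed here, and these values do not say whether the line transcribes KDR or FLT1.

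NRP2, a co-receptor for VEGFC and for semaphorins such as SEMA3F, had 8.71 and 8.79 on the control arrays and 8.13 and 8.06 on the inhibitor arrays. Both inhibitor arrays lay below both controls, and replicates differed by 0.08 or less. The difference was -0.66 (SE 0.141, 95% interval -0.99 to -0.32), or 1.57-fold lower, with an unadjusted p of 0.0026 and an adjusted p of 0.15 in limma. Of all features, 1.71% had a larger moderated statistic in absolute value. After quantile normalization the difference was -0.46 (SE 0.132, adjusted p = 0.28), with the values still apart at 8.63 and 8.67 against 8.26 and 8.12. NRP2 passed in 3 of 14 settings: with an intensity trend (adjusted p = 0.0052), with that trend after quantile normalization (0.037) and over features above the median level (0.025). In these settings 7.11%, 2.61% and 9.41% of the features tested passed, against 0.0513% in the main fit.

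NRP1, the co-receptor that pairs VEGFA with KDR and binds SEMA3A, had 8.53 and 8.74 on the control arrays and 8.61 and 8.45 on the inhibitor arrays. The groups overlapped, and the difference was -0.11 (SE 0.156, 95% interval -0.48 to 0.27), or 0.10 after quantile normalization. The interval of NRP1 leaves room for a decrease of 0.48, so a smaller change than that of NRP2 was not shown by this interval alone.

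**Figure D2:**
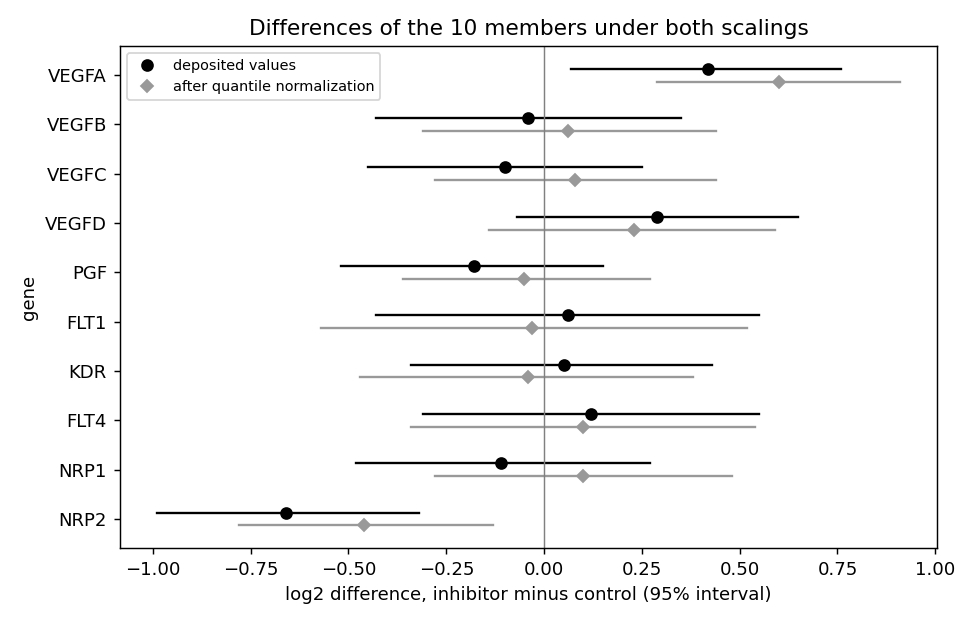
Log2 difference between inhibitor and control arrays (x axis) for the 10 genes (y axis) with 95% intervals from limma, from the deposited values (black circles) and after quantile normalization (grey diamonds). The intervals of VEGFA (0.07 to 0.76) and NRP2 (-0.99 to -0.32) leave out 0 under both scalings, before any adjustment for the number of features; those of the other 8 genes include 0.

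Counted together, 0 of the 10 genes passed an adjusted p of 0.05, against 0.0513% of all features (11 features). At an unadjusted p under 0.05, 2 of 10 differed, VEGFA higher and NRP2 lower, against 17.9% of all features, so the share in the family is near the background. By direction the background was 5.11% higher and 12.8% lower, and 6.57% and 7.10% after quantile normalization, where the same 2 genes were called. The groups did not overlap for 4 of the 10 genes, against 50.3% of features. Of these, VEGFA and VEGFD were higher (background 16.5%), and PGF and NRP2 were lower (33.8%). After quantile normalization 2 members were higher without overlap (background 22.7%) and 1, NRP2, was lower (23.9%). The median difference of the 10 genes was 0.00, with 5 higher and 5 lower. VEGFA and NRP2 were thus 2 of the 3831 features at that unadjusted p.

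Ratios between members within an array do not depend on a shift of the whole array. NRP2 minus NRP1 was 0.18 and 0.05 log2 units on the control arrays and -0.48 and -0.39 on the inhibitor arrays, a difference of -0.55, and it was also -0.55 after quantile normalization. VEGFA minus VEGFB was 1.63 and 1.51 on the control arrays and 2.09 and 1.96 on the inhibitor arrays, a difference of 0.45 (0.54 after quantile normalization). VEGFA minus VEGFC was -0.03 and 0.08 on the control arrays and 0.39 and 0.69 on the inhibitor arrays, a difference of 0.52 under both scalings. In these 3 ratios the groups did not overlap; they hold VEGFA and NRP2, the members with the largest differences, and single features did not overlap in 50.3% of cases. The exact two-sided permutation test over arrays gave its smallest possible p, 0.333, for each of them (0.67 adjusted over the 6 ratios computed). The other 3 ratios overlapped between groups: VEGFB minus PGF differed by 0.15, FLT4 minus KDR by 0.07 and KDR minus FLT1 by -0.01.

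**Figure D3:**
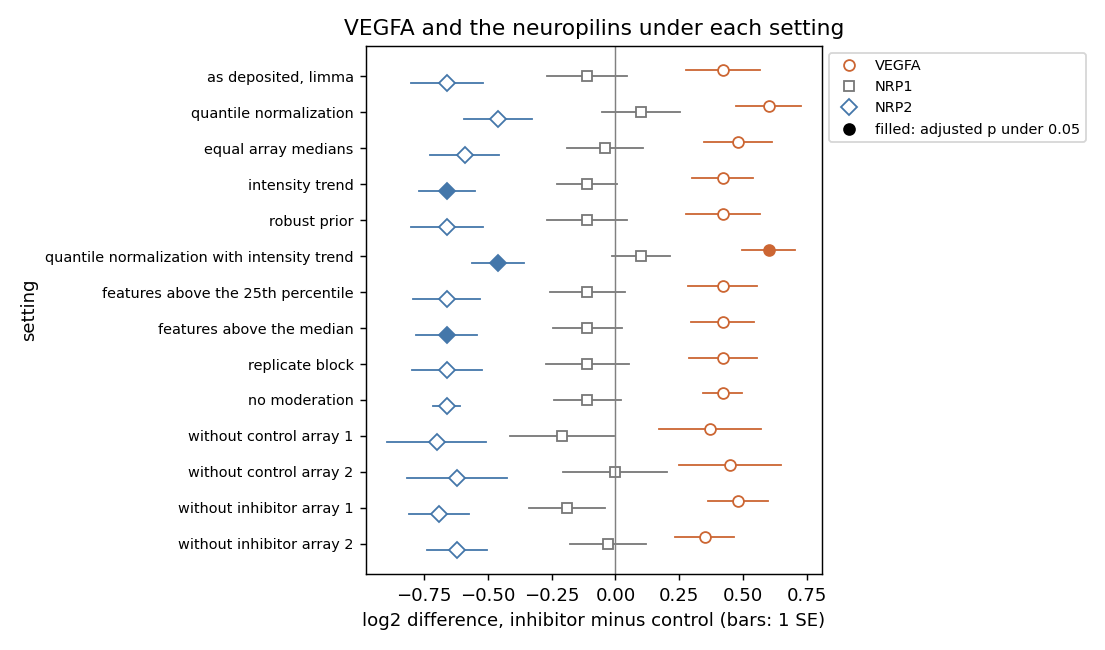
Log2 difference (x axis, bars of 1 SE) of VEGFA (orange circles), NRP1 (grey squares) and NRP2 (blue diamonds) under the 14 settings (y axis); filled marks have an adjusted p under 0.05. VEGFA stays between 0.35 and 0.60 and NRP2 between -0.70 and -0.46, while NRP1 lies on both sides of 0.

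The promoter of NRP2, the member with the largest difference, is shown for context. It is the 250 bases before the start of transcription in RefSeq (GRCh38.p14, chr2:205682251-205682500, plus strand), with capitals for the GC box letters GGGCGG on either strand, the motif of SP1-type factors.
NRP2 promoter: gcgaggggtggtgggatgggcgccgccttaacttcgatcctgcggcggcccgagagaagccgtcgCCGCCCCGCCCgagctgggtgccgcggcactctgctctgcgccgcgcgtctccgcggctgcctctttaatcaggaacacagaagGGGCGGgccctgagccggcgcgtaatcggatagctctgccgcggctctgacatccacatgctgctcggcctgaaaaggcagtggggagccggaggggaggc
The letters occur 3 times, with the first pair overlapping. Of 35116 promoters of this length, 42.6% hold at least 1 match, so the match is common. Promoters were matched for 7 of the 10 genes (not VEGFA, FLT4 and NRP1). The 250 bases of VEGFB, VEGFC, PGF, FLT1, KDR and NRP2 held GGGCGG and those of VEGFD did not, and the hypoxia response core ACGTG, searched on both strands, was in 0 of the 7 against 18.5% of all promoters. The matches are a description only.

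The other genes of the pathway were taken from 6 lists by role, with 122 distinct genes measured of 135 listed. Over these genes 1 passed the adjusted threshold, EGR1, and 24 had an unadjusted p under 0.05, 4 higher and 20 lower, which is 24 of 122 against 17.9% of all features. The median difference was -0.16, near the -0.17 of the brighter features, and it was -0.04 after quantile normalization. The lists overlap, since ADAMTS1 for example is both a matrix protease and a VEGFA-induced gene.

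**Figure D4:**
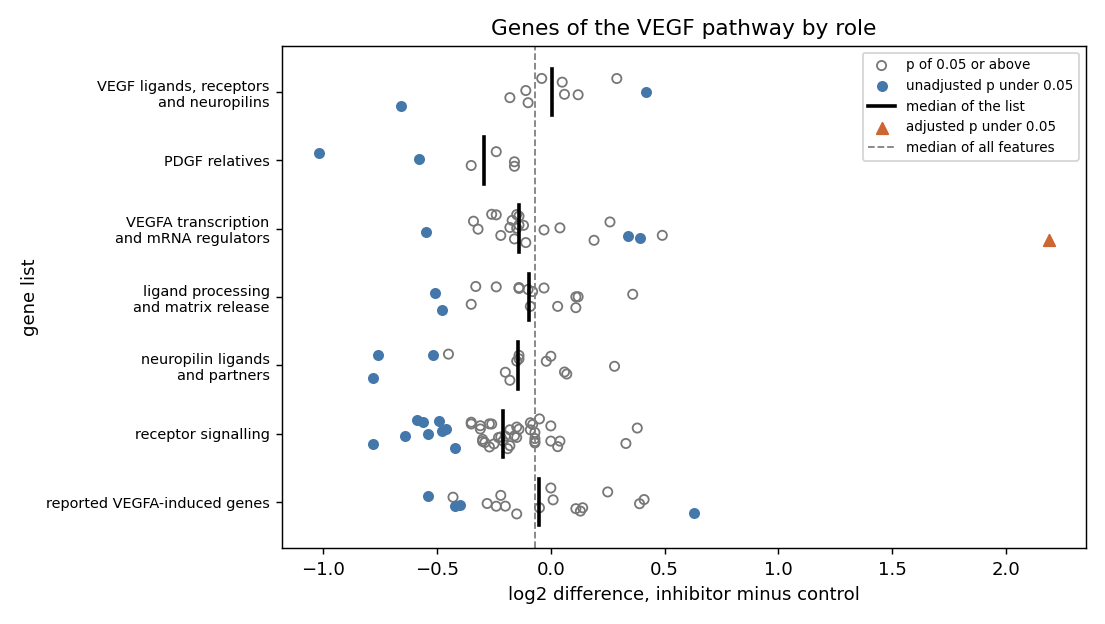
Log2 difference (x axis) of each gene in the VEGF family and in 6 pathway lists (y axis, with vertical scatter for legibility): open circles have an unadjusted p of 0.05 or above, blue points an unadjusted p under 0.05, and the orange triangle (EGR1) an adjusted p under 0.05. Black bars are list medians, from -0.29 for the PDGF relatives to 0.00 for the VEGF family, and the dashed line is the median of all features (-0.07).

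Among 23 regulators of VEGFA transcription and messenger RNA, 7 were higher and 16 lower (median -0.14), and 13 were higher and 10 lower after quantile normalization. As background, 59.2% of all features were lower, 73.8% of those above the median level, and 50.5% of all features after quantile normalization. The list has no settled direction. At an unadjusted p under 0.05 in limma, 3 were higher and 1 lower, against 5.11% and 12.8% of all features. After quantile normalization 4 were higher and 1 lower at that p, against 6.57% and 7.10%. EGR1, an immediate early factor that can bind the VEGFA promoter, rose from 5.74 and 5.41 in the controls to 7.61 and 7.92 with the inhibitor. Its difference was 2.19 (SE 0.185, adjusted p = 0.039 in limma), it was 2.31 after quantile normalization (adjusted p = 0.058), and it was 2.02 to 2.35 with 1 array left out, fits in which no feature of the series passed. Genes of the oxygen-sensing pathway did not pass on the deposited values. HIF1A, the hypoxia-inducible subunit, had a difference of -0.11 (0.10 after quantile normalization), EPAS1, its paralog HIF-2alpha, 0.49 (SE 0.211, adjusted p = 0.29) and the prolyl hydroxylase EGLN2, which marks both for degradation, 0.39 (SE 0.149, adjusted p = 0.25). After quantile normalization EPAS1 was at 0.71 (unadjusted p 0.023 in limma) and EGLN2 at 0.58. With the intensity trend added both passed (adjusted p = 0.045 and 0.017), as did 2.61% of all features. With the trend on the deposited values neither passed (adjusted p = 0.067 and 0.054). Genes of the other lists also passed in alternative settings and are named in the closing section. The EPAS1 difference was 0.25 without inhibitor array 1 and 0.31 without control array 1. ZFP36, a protein that destabilises VEGFA messenger RNA, differed by 0.34 and the transcription factor WT1 by -0.55, each with an adjusted p above the threshold.

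Proteins that process or release the ligands showed 5 of 16 genes higher and 11 lower (median -0.09), with 0 past the adjusted threshold in limma and 2 lower at an unadjusted p under 0.05. These 2 were CCBE1 and ADAMTS3, the matrix protein and the protease that together activate VEGFC. CCBE1 had 9.69 and 9.76 on the control arrays and 9.16 and 9.32 on the inhibitor arrays, a difference of -0.48 (SE 0.146, adjusted p = 0.20). ADAMTS3 differed by -0.51 (SE 0.199, adjusted p = 0.26), with a mean in the dimmest 25% of features, and by -0.25 without inhibitor array 1 and -0.76 without inhibitor array 2. After quantile normalization the CCBE1 difference was -0.28, with an unadjusted p of 0.075. As background, 59.2% of all features were lower, 73.8% of those above the median level, and 12.8% were lower at an unadjusted p under 0.05. FURIN, the proprotein convertase that cleaves VEGFC and VEGFD, differed by -0.35, with overlapping groups, and by -0.04 without inhibitor array 1 and -0.66 without inhibitor array 2. CCN2, a matrix protein that binds VEGFA, differed by -0.33 (-0.11 after quantile normalization).

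Of 14 semaphorins, plexins and other neuropilin partners, 4 were higher and 10 lower (median -0.15), with 0 past the adjusted threshold in limma and 3 lower at an unadjusted p under 0.05, against 59.2% of features lower and 12.8% lower at that p. PLXNA4, a signalling partner of NRP1, had 4.85 and 4.99 on the control arrays and 4.20 and 4.08 on the inhibitor arrays, a difference of -0.78 (SE 0.147, adjusted p = 0.14). SEMA3E, a semaphorin that signals through PLXND1, had 5.99 and 6.15 on the control arrays and 5.26 and 5.36 on the inhibitor arrays, a difference of -0.76 (SE 0.148, adjusted p = 0.14). Both lay lower in each inhibitor array than in either control, by more than the spread between replicates, and both kept that size after quantile normalization (-0.77 and -0.69). MYO6, the motor that moves endocytosed vesicles, differed by -0.52. SEMA3C, a ligand of both neuropilins, had the opposite sign, at 0.28 (unadjusted p 0.097 in limma). After quantile normalization SEMA3C was at 0.45 (unadjusted p 0.013, adjusted p = 0.28). At an unadjusted p under 0.05, 1 gene of the list was then higher and 3 lower, against 6.57% and 7.10% of features. The NRP1 partner PLXNA1 differed by -0.20 (-0.04 after quantile normalization). GIPC1, the adaptor of neuropilin tails, had no matched feature.

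Of 45 genes that carry the signal from the receptors, 4 were higher, 39 lower and 2 equal (median -0.21). In limma 0 passed the adjusted threshold, and 9 of the 45 were lower at an unadjusted p under 0.05. As background, 73.8% of features above the median level were lower, and 2092 of those 10739 features were lower at that p. Over all features 12.8% were lower at that p. After quantile normalization 17 were higher and 27 lower (median -0.06), and 5 were lower at that p, against 7.10% of features. GAB1, a docking protein, differed by -0.78 (SE 0.207), the focal adhesion kinase PTK2 by -0.59 (SE 0.148), the calcineurin subunit PPP3CB by -0.56 (SE 0.153) and the kinase PAK2 by -0.54 (SE 0.146), with adjusted p-values of 0.17 or 0.18. PAK2 was at -0.34 after quantile normalization. Of the GAB1 values, inhibitor array 1 was the lowest at 5.72, against 6.27 in inhibitor array 2 and 6.70 and 6.84 in the controls, and the difference was -0.50 without that array.

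Genes reported as induced by VEGFA in endothelial cells were mixed: 8 of 19 were higher, 10 lower and 1 equal (median -0.05), and 0 passed the adjusted threshold in limma. Over all features 59.2% were lower. In the list 1 gene was higher and 3 lower at an unadjusted p under 0.05, against 5.11% and 12.8% of all features. At an unadjusted p under 0.05, PTGS2, the inducible cyclooxygenase, was higher (0.63, SE 0.192, in the dimmest 25% of features), with 0.39 without control array 2 and 0.88 without control array 1. STC1, the hormone stanniocalcin-1, differed by -0.54 (SE 0.14), F3, the coagulation initiator tissue factor, by -0.42 and PLAT, tissue plasminogen activator, by -0.40 in the other direction. After quantile normalization STC1 was at -0.36, while F3 (-0.24, unadjusted p 0.12) and PLAT (-0.21, unadjusted p 0.17) no longer met that p. By it 2 genes were then higher and 1 lower, against 6.57% and 7.10% of all features. RCAN1, the calcineurin inhibitor that endothelial cells induce on VEGFA, differed by 0.25 (SE 0.158, adjusted p = 0.44), by 0.45 after quantile normalization (unadjusted p 0.022, adjusted p = 0.30), by 0.11 without control array 1 and by 0.39 without control array 2.

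The platelet-derived growth factors and their receptors, the nearest relatives of the VEGF family, all had negative differences (6 of 6, median -0.29, 5 of 6 after quantile normalization). Over all features 59.2% were lower, and 50.5% after quantile normalization. The groups did not overlap for 5 of the 6 genes, against 33.8% of features lower without overlap, and 2 of 6 were lower at an unadjusted p under 0.05, against 12.8%. After quantile normalization 3 were lower at that p, against 7.10% of features. PDGFRB then met it (-0.39, unadjusted p 0.043 in limma), after -0.35 and 0.058 on the deposited values. PDGFRB and PDGFD, both among the 5 without overlap, had means in the dimmest 25% of features. PDGFC, a secreted ligand of PDGFRA, had 6.88 and 6.86 on the control arrays and 5.47 and 6.23 on the inhibitor arrays. The inhibitor arrays were both lower but 0.76 apart, and the difference was -1.02 (SE 0.249, adjusted p = 0.17), or -0.64 without inhibitor array 1 and -1.40 without inhibitor array 2. PDGFRA, the receptor, had 4.36 and 4.42 on the control arrays and 3.73 and 3.88 on the inhibitor arrays, a difference of -0.58 (SE 0.145, adjusted p = 0.17) at a level just above the dimmest 25% of features. The log2 values of 5 fibroblast markers, PDGFRB among them, summed to 25.2 and 24.2 on the control arrays. On the inhibitor arrays they summed to 23.7 and 24.6, overlapping between groups.

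Endothelial cells carry the receptors in tissue, so their markers were read beside the family. The log2 values of 10 endothelial markers summed to 57.7 and 58.2 on the control arrays and 56.6 and 56.9 on the inhibitor arrays. Both inhibitor sums lay below both control sums, but without CDH5, left out after its values were seen, the sums of the other 9 were 49.6 and 50.1 against 49.6 and 49.9, which overlap. Of these markers 3 were higher and 7 lower, 0 passed the adjusted threshold in limma and 1, CDH5, the endothelial cadherin, was lower at an unadjusted p under 0.05 (-1.08, SE 0.14, adjusted p = 0.10, with 8.13 and 8.06 on the control arrays and 7.01 and 7.03 on the inhibitor arrays). The defining marker PECAM1 had 3.78 to 4.53, and TEK and EMCN lay in the dimmest 25% of features, as KDR and FLT1 did, while TIE1 (8.49 to 8.88), ROBO4 (7.24 to 7.37), ERG (6.83 to 7.02) and VWF (6.45 to 6.53) lay above the median level of features. CDH5 also lay above the median level, and ESAM (4.62 to 5.33) and CLDN5 (4.70 to 4.91) lay between the dimmest 25% and that level. Of 5 leukocyte markers listed, 4 had a matched feature, and all 4 were higher with the inhibitor. Their log2 values summed to 20.9 and 20.9 on the control arrays and 21.8 and 21.5 on the inhibitor arrays, without overlap. In limma 0 of the 4 had an unadjusted p under 0.05, against 5.11% of all features higher at that p. The part of these markers in the VEGF values was not tested.

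Likeness of pattern was measured as the root mean square distance between values centred on each feature's own mean over the 4 arrays. The named features nearest to VEGFA were PTPRM, a receptor phosphatase (distance 0.0083 log2 units, difference 0.40), the keratin-associated KRTAP4-5 (0.013, 0.39) and the zinc finger gene ZNF442 (0.015, 0.42). Nearest to NRP2 were the orphan receptor GPR160 (0.015, -0.64), the kinase CDK14 (0.021, -0.65) and R3HDM1, an RNA-binding domain protein (0.023, -0.67). With 4 arrays in 2 groups and 17709 named features, these distances describe these arrays only.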

How the data were processed

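Arrays of 2 control and 2 inhibitor samples gave 1 value per feature. The deposited log2 values were made by the authors, per the submitters' processing notes, with RMA and Transcriptome Analysis Console 4.0; the genome build and the parameters are not given in the sources used here. RMA corrects background, normalizes arrays and summarises probes, yet the deposited distributions were not equal. Depth does not apply to arrays, and their number limits the precision.

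Symbols came from the platform annotation. All 21448 features were fitted with limma 3.58.1 in R 4.3.3 (lmFit, eBayes, 2 residual and 4.78 prior degrees of freedom), without a filter or replicate block, and p-values were adjusted by Benjamini-Hochberg over all features (threshold 0.05, intervals at 95%). Below the 25th percentile, a feature is called in the dimmest 25%. The procedure was tested on simulated data. The members, lists and tests were chosen with earlier results of these data known. Named were all members, up to 4 genes per list with the largest moderated statistic, those past the threshold, and HIF1A, EPAS1, FURIN, GIPC1, PLXNA1, SEMA3C, RCAN1 and PDGFC; CDH5, PECAM1, TEK, EMCN and the other markers named were chosen after their values were seen. No set test was run.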

Additional observations from a re-analysis of the deposited data

How the results depend on the processing

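VEGFA and NRP2 kept their directions in all 14 settings, as did VEGFD and PGF in every setting that kept them. Most settings could not have reversed them. The trend or robust prior alone, the level filters, the replicate block and the fit without moderation leave a difference unchanged. Leaving out 1 array cannot reverse groups that do not overlap. Only quantile normalization, with or without the trend, and equal array medians could have changed a sign. The members past an adjusted p of 0.05 numbered 0 as reported, 1 with an intensity trend (NRP2), 2 with quantile normalization and the trend (VEGFA, NRP2) and 1 over features above the median (NRP2). Among named pathway genes, PDGFC, CCBE1, CCN2, PLXNA4, SEMA3E, GAB1, PAK2, PPP3CB, STC1 and EGR1 passed with the trend (7.11% of features did). EGR1, EPAS1 and EGLN2 passed with quantile normalization and the trend (2.61%). Over features above the median, PDGFC, WT1, CCBE1, SEMA3E, MYO6, PTK2, GAB1, PAK2, PPP3CB, STC1 and EGR1 passed (9.41%). Over all features the count of 11 became 0 after quantile normalization (2932 at an unadjusted p under 0.05), 1525 with the trend, 559 with both, 38 above the 25th percentile, 1011 above the median, 0 without moderation, and 0 to 0 with 1 array left out. Pathway genes past the threshold went from 1 to 0, 12, 3, 11 (above the median) and 0 (no moderation) in those settings, and 0 to 0 with 1 array left out; at an unadjusted p they numbered 24, 41 with the trend and 6 to 36 with 1 array left out. Members at that p numbered 1 to 3 with 1 array left out: 1, NRP2, without control array 1 or without control array 2, where a fit has 1 residual degree of freedom.

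Small differences reversed: after quantile normalization, with or without the trend, VEGFB (0.06), VEGFC (0.08), FLT1 (-0.03), KDR (-0.04), NRP1 (0.10) and HIF1A (0.10), and with equal array medians VEGFB (0.03). With 1 array left out the ranges were -0.17 to 0.09 for VEGFB, -0.17 to 0.28 for FLT1, -0.07 to 0.16 for KDR, -0.09 to 0.33 for FLT4, -0.21 to 0 for NRP1 and -0.27 to 0.06 for HIF1A. The cause was not tested.

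Arrays share only a replicate number: deviations of same-numbered arrays correlated at 0.00579. With the replicate block 0 features and 0 pathway genes passed (3220 features at an unadjusted p under 0.05), and VEGFA and NRP2 both had an adjusted p of 0.32. Each member had 1 feature, so the alternative of another feature was not run; 3 members lie below the 25th percentile and 4 below the median and gave no value there.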
